A study of Homo sapiens with 20 samples.

Results

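Definitive endoderm derived from primed human pluripotent stem cells was compared with the cells it was made from, through the chromatin contacts that bait fragments near poised enhancers made within their own chromosome. Contacts were chosen as all pairs of a bait and another interval (the other end) on 1 chromosome that had an interaction score of 5 or more in definitive endoderm (DE), at day 14, or in both. This gave 48004 contacts of the 182303 listed within chromosomes and the 766138 listed in all, and each listed contact within a chromosome reached a score of 5 in at least 1 of the 10 conditions of the study. Other ends, called fragments below, had a median length of 5263 bp against 617 bp for baits. They can hold several cut sites of the restriction enzyme. The study used Poised Enhancer Capture Hi-C, which enriches the ligation products of selected fragments, on 2 libraries for each condition. HNES1 is a human embryonic stem cell line that was kept naive and then sampled over 14 days of its transition to the primed state. The day 14 libraries came from such HNES1 cells at day 14 without further differentiation. The DE libraries came from day 14 HNES1 cells that received, for 1 day, Activin A at 100 ng/mL, BMP4 at 3 ng/mL, FGF2 at 10 ng/mL, the GSK3 inhibitor CHIR99021 at 3 µM, the PI3K inhibitor PI-103 and heparin. Over the next 2 days they received Activin A at 100 ng/mL, FGF2 at 20 ng/mL, the BMP receptor inhibitor LDN193189 at 250 nM, PI-103 and heparin, with PI-103 at 100 nM in both steps. Neuroectoderm (NE), from 10 days of differentiation of day 14 cells, and H9, an embryonic stem cell line in the primed state, are given for reference. All conditions except H9 share the HNES1 line, and no sort of the DE cells is stated in the labels used here. Contact maps carry no expression values, so the labelled cell type could not be checked against expressed markers.

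Poised enhancers are distal elements that lie near genes of later development and carry Polycomb marks in pluripotent cells, where they often touch promoters marked in the same way. Definitive endoderm is the embryonic layer that forms gut, liver, pancreas and lung, and it is made in culture by activin, which stands in for NODAL signalling, usually with WNT activation at the start. EOMES, SOX17, GATA4, GATA6 and FOXA2 are transcription factors of its formation, whereas HOX genes pattern the body axis later and NKX2-1, PAX9 and OTP are regulators of lung and thyroid, pharyngeal pouch and hypothalamus.

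Promoter sequences are shown for 6 genes whose start site lay in an interval with contacts, 3 with more in DE and 3 with fewer. They are the 250 bases before the RefSeq start site, on GRCh38.p14 and 5′ to 3′ on the gene's strand, with CG dinucleotides in capitals. DKK1 (chr10:52314031-52314280, plus strand), CER1 (chr9:14722734-14722983, minus strand) and CH25H (chr10:89207318-89207567, minus strand) had 10, 1 and 5 contacts at the start site at day 14 and 23, 5 and 19 in DE.
DKK1: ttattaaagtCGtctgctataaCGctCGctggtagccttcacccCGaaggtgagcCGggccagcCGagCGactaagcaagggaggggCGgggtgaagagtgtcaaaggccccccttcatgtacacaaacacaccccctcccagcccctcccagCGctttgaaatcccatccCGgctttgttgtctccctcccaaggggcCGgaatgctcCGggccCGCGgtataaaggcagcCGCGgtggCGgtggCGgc
CER1: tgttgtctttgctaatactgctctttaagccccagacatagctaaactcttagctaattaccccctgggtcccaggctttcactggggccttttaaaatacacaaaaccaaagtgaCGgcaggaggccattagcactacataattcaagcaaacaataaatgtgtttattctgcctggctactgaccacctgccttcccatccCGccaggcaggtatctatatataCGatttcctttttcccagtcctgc
CH25H: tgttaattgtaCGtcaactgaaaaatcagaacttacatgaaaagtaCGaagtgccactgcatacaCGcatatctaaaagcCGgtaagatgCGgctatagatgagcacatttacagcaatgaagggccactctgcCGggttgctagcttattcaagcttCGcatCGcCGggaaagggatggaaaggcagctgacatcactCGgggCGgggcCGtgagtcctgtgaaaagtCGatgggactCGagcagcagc
NKX2-1 (chr14:36520233-36520482, minus strand), EVX1 (chr7:27242552-27242801, plus strand) and HOXA10 (chr7:27179862-27180111, minus strand) had 12, 6 and 30 contacts at their start sites at day 14 and 1, 0 and 10 in DE. HOXA10 has several annotated start sites, and the sequence is that of the outermost.
NKX2-1: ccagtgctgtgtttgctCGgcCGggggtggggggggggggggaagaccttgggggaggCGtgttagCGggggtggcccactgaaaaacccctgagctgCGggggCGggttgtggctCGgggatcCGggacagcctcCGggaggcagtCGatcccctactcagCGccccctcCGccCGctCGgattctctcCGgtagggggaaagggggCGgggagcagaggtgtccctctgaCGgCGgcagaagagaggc
EVX1: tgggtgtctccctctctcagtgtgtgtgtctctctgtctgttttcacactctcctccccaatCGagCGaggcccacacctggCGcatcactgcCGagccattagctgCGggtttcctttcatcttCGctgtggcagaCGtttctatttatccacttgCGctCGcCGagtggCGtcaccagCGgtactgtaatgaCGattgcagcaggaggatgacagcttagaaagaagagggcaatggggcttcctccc
HOXA10: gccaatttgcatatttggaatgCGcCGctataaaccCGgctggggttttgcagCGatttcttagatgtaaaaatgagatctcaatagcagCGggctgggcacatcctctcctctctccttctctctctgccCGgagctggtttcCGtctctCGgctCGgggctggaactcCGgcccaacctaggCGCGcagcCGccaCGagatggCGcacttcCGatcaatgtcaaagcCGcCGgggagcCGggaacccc
The CER1 sequence held 3 CG dinucleotides and the other sequences 13 to 19, against a median of 17 (quartiles 6 and 26) over the 15767 protein-coding genes with an entry. Over the 107 genes with 5 or more contacts more in DE at the start site the median was 20, and over the 36 with 5 or more fewer it was 15, against 19 (quartiles 9 and 27) over the 7299 genes whose start site was linked to a listed contact. None of the 6 sequences held the GATA motif AGATAA, the forkhead motif TGTTTAC or the T-box motif AGGTGTGA on either strand, which 6.94%, 2.33% and 0.736% of all these sequences did. In the NKX2-1 sequence a site of the restriction enzyme DpnII (GATC) begins at position 36520331 of chromosome 14, where a listed other end starts and the preceding one stops, so that both of these other ends belong to this promoter. The other GATC of this sequence, at 36520359, and those of the HOXA10 sequence, at 27180032 and 27179894 of chromosome 7, are not edges of any listed interval.

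Within chromosomes, 20498 contacts were called at day 14 and 29563 in DE, 1.44 times as many. Of these, 27506 were called in DE and not at day 14 (gained, 15.1% of the contacts listed within chromosomes), 18441 at day 14 and not in DE (lost, 10.1%), and 2057 in both. The contacts called in both were 6.96% of the DE calls (95% Wilson interval 6.67 to 7.25) and 10.0% of the day 14 calls (9.63 to 10.5). DE calls were also called in naive cells for 5.47%, in H9 for 8.04% and in NE for 12.7%. Each condition has 1 score per contact that pools its 2 libraries, so no spread between replicates could be had, no difference here has a test, and the intervals cover counting error only. How many of the gains and losses come from sampling was not tested. The depth is unknown, and DE also had 217055 called contacts over all chromosome pairs against 51930 at day 14. Counts are therefore also given for the 20498 top-scoring contacts of DE, an equal number to day 14, whose lowest DE score was 5.41. With equal numbers, 18816 were gained, 18816 lost and 1682 kept. At a score of 10 or more, 741 were gained, 352 lost and 68 kept. Of the gained contacts, 86.8% scored under 3 at day 14 and 38.9% scored 0, and of the lost contacts 83.4% scored under 3 in DE. Scores from 4.5 to 5, just under the threshold, were held by 2454 contacts at day 14 and 3173 in DE, and scores from 5 to 5.5, just over it, by 8109 and 10571.

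Genes were linked to a contact where either annotated end of the gene lay in the bait or the other end, widened by 1 kb on each side, and neighbouring genes can share a contact. Contacts given for a gene list are summed over its genes, so a contact linked to several members counts once for each. Of 11293 linked genes, 29.7% had more contacts in DE than at day 14 and 19.2% had fewer, and the mean was 0.718 contacts per gene at day 14 and 0.955 in DE. With equal numbers of contacts 20.5% had more and 23% fewer, and at a score of 10 or more 1.82% had more and 0.859% fewer.

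Of 16 linked genes of the endoderm regulators, 9 had more contacts in DE and 2 had fewer, with a mean of 2.31 at day 14 and 4.19 in DE. With equal numbers the DE mean was 3.00, 6 had more and 2 had fewer. EOMES, the T-box factor that starts endoderm formation downstream of NODAL, had 3 contacts at day 14, 13 in DE, 10 in NE and from 1 to 6 over the 8 pluripotent conditions (naive to day 14, and H9). It had 10 in DE with equal numbers. The DE count thus lay above all pluripotent conditions. The day 14 partners of EOMES lay at chr3:27238238-27470892, on the lower-coordinate side of the gene, and the DE partners at chr3:27886695-28337491, on the other side. None of the 3 was shared, where 10.0% of all day 14 calls within chromosomes were also called in DE. The highest EOMES score in DE was 9.28, for a fragment at 610 kb with an annotated end of CMC1, which scored 2.27 at day 14, 1.85 in H9 and 3.30 in NE. The baits of EOMES flank the gene, and none of its contacts lay at the RefSeq start site itself.

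SOX17, an endoderm factor that acts after EOMES, had 10 contacts at day 14, 14 in DE, 17 in NE and from 3 to 10 over the pluripotent conditions. All of them lay at lower coordinates than the gene, 281 to 317 kb away at day 14 and 147 to 311 kb away in DE, and 2 were kept. The highest DE score was 12.0, for a fragment at 231 kb that scored 3.76 at day 14, 1.00 in H9 and 7.04 in NE. Partners nearer than those of day 14 were thus called in DE, but the number in DE was 11 with equal numbers, near the 10 of day 14. GATA4, a zinc finger factor of endoderm and heart, had 3 contacts at day 14, 11 in DE, 8 in NE and from 2 to 6 over the pluripotent conditions. Its DE count was 5 with equal numbers. A DE partner of GATA4 lay 93459 kb away. GATA4 had 1 contact fewer in DE when the intervals were not widened. FOXA2, a pioneer factor of endoderm, had 5 contacts at day 14 and 8 in DE, within the 2 to 9 of the pluripotent conditions. FOXA1, its paralogue, chosen here after its values were seen, had 7 and 10.

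GATA6 had 1 contact in each state, GSC 1 and 1, MIXL1 none in either, PRDM1 1 and 3, and HHEX, a factor of foregut and liver, 4 and 2. CXCR4, the surface receptor used to sort endoderm, and NODAL had no link within chromosomes. EOMES had the largest difference of the list at the threshold of 5 and with equal numbers, where GATA4, FOXA1 and FOXA2 each had 2 contacts more in DE than at day 14 and SOX17 had 1. Without EOMES the list held 34 contacts at day 14 and 54 in DE over 15 genes. By RefSeq start site, with entries for 14 of the 19 genes, 11 linked genes held 11 contacts at day 14 and 9 in DE. SOX17, GATA4 and FOXA2 have no such entry, and EOMES had no contact at its start site in either state. By either gene end the genes with such an entry held 18 and 34.

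**Figure D1:**
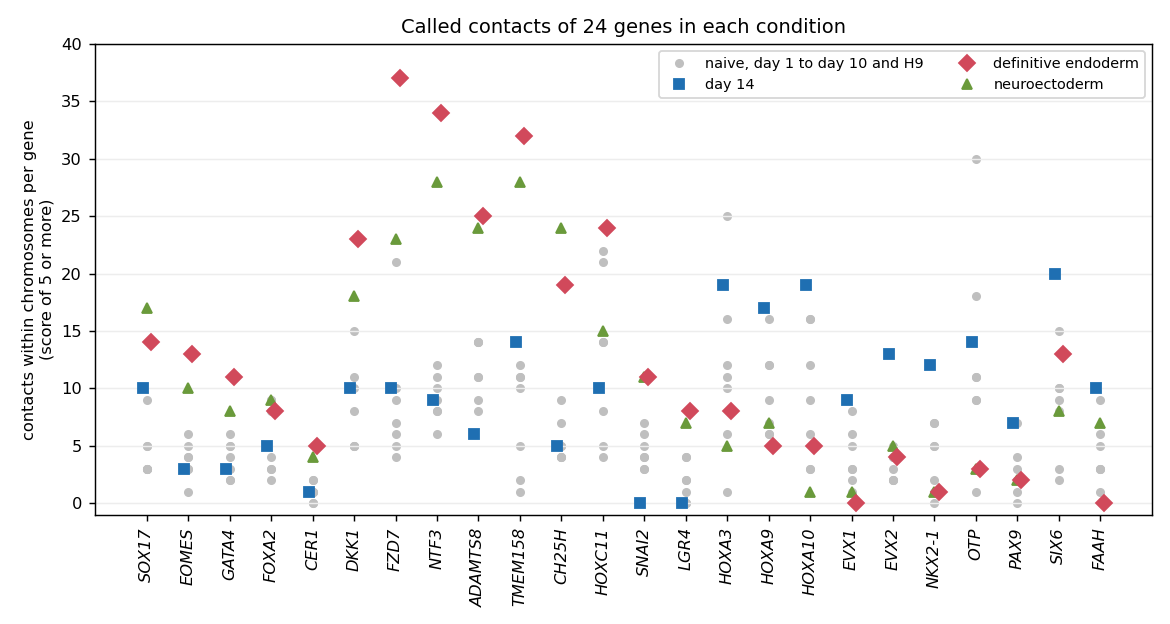
Called contacts within chromosomes (y axis, number per gene at a score of 5 or more) for 24 genes (x axis) at day 14 (squares), in definitive endoderm (diamonds), in neuroectoderm (triangles) and in the other pluripotent conditions (grey points), with 1 pooled value each. The DE diamonds of FZD7 (37), NTF3 (34), TMEM158 (32) and EOMES (13) lie above all pluripotent points, and those of EVX1 (0) and FAAH (0) lie below them.

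Of 11 linked endoderm surface and secreted genes, 8 had more contacts in DE and 1 had fewer, with 16 contacts in all at day 14 and 36 in DE. The DE sum was 25 with equal numbers, where 5 had more and 1 fewer. Over all linked genes 29.7% had more and 19.2% fewer, or 20.5% and 23% with equal numbers. DKK1, a secreted WNT antagonist, gave most of the list's difference at a score of 5. It had 10 contacts at day 14, 23 in DE, 18 in NE, 15 in H9 and from 5 to 15 over the pluripotent conditions. It had 17 in DE with equal numbers. All DKK1 partners lay at higher coordinates, at a median of 177 kb at day 14 and 175 kb in DE, and 3 were kept. The highest DE score was 14.3, for a fragment at 174 kb that scored 3.85 at day 14 from the same bait. At day 14 the same region scored highest from another DKK1 bait, at 9.14. The group without DKK1 held 6 and 13 contacts. CER1, a secreted antagonist of NODAL, BMP and WNT ligands, had 1 contact at day 14, 5 in DE, 4 in NE and from 0 to 2 over the pluripotent conditions. A CER1 partner at 22.1 kb scored 11.3 in DE, 2.08 at day 14, 1.46 in H9 and 5.74 in NE. FGF17 had 4 contacts at day 14 and none in DE, below each pluripotent condition, and LEFTY1, a NODAL inhibitor, 0 and 1.

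In the WNT pathway, 25 of 52 linked genes had more contacts in DE and 9 had fewer, with 88 contacts at day 14 and 165 in DE. With equal numbers 16 had more and 12 fewer, and the DE list held 118. FZD7, a WNT receptor of pluripotent and endoderm cells, held 10 of these at day 14 and 37 in DE, against 23 in NE, 21 in H9 and from 4 to 21 over the pluripotent conditions. With equal numbers it held 35 and at a score of 10 or more 4, against none at day 14. All FZD7 contacts came from 1 bait, and the DE partners spanned chr2:201711255-202215005 on both sides of it. The same partner, at 249 kb, was strongest in both states, with scores of 8.66 at day 14, 16.5 in DE, 9.61 in H9 and 5.80 in NE. The list without FZD7 held 78 and 128 contacts. LGR4, an R-spondin receptor, had none at day 14 and 8 in DE (7 in NE), and WNT4, chosen after its values were seen, 2 and 10 (2 in NE). Among BMP and FGF genes 13 of 28 had more contacts in DE and 6 fewer, against 29.7% and 19.2% of all linked genes. With equal numbers 12 had more and 6 fewer, and the list held 25 at day 14 and 39 in DE. At a score of 5, CHRD, a BMP antagonist, had 1 and 7, FGF20 3 and 9, and FGF10 0 and 5. NODAL and activin genes had few contacts in either state, 2 at day 14 and 5 in DE over 11 linked genes.

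**Figure D2:**
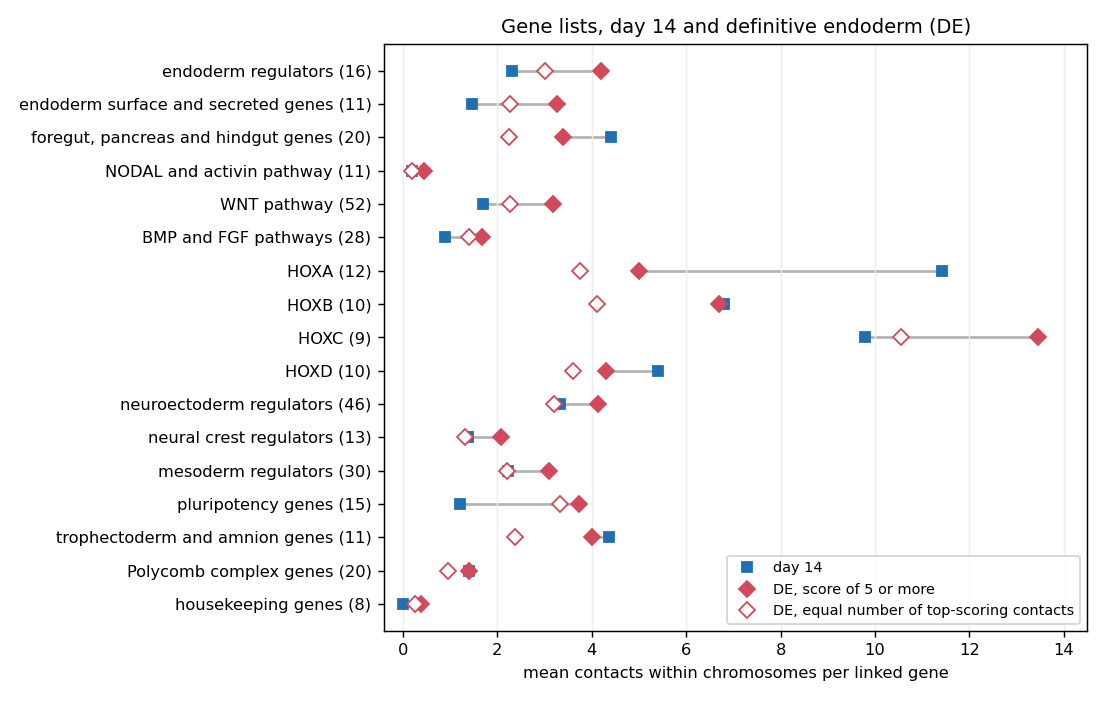
Mean number of contacts within chromosomes per linked gene (x axis) in each gene list (y axis, number of linked genes in brackets) at day 14 (squares), in DE at a score of 5 or more (filled diamonds) and in DE with an equal number of top-scoring contacts (open diamonds). Endoderm regulators lie at 2.31 and 4.19 and HOXA at 11.4 and 5.00.

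The largest gains over all linked genes were not at endoderm regulators. After FZD7 they were NTF3, a neurotrophin, with 9 contacts at day 14 and 34 in DE, ADAMTS8, a secreted protease, with 6 and 25, and TMEM158, a membrane protein, with 14 and 32. CH25H, cholesterol 25-hydroxylase, had 5 and 19, ADAMTS16, a secreted protease, 2 and 16, and HOXC11 10 and 24. These counts were 29, 20, 24, 14, 14 and 20 in DE with equal numbers, so each was above its day 14 count. NE had counts near those of DE for NTF3 (28), ADAMTS8 (24), TMEM158 (28), CH25H (24) and ADAMTS16 (17), and fewer for FZD7 (23) and HOXC11 (15). ADAMTS8 had 1 contact at a score of 10 or more at day 14 and 10 in DE. The highest DE score of NTF3 was 20.6, for a fragment at 225 kb that scored 5.18 at day 14, 8.59 in H9 and 15.9 in NE. The highest of ADAMTS16 was 17.4, at 255 kb, with 1.00 at day 14, 0 in H9 and 7.97 in NE. TMEM158 reached 14.3 at 278 kb, where day 14 scored 0.921.

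In 1305 genes (11.6% of those linked) DE had more contacts than each of the 8 pluripotent conditions, and in 58 (0.514%) it had fewer than each. DE also had more calls, 29563 against 18272 to 23764 over those conditions, and with the 18272 top-scoring contacts of every condition, a setting added after seeing the data, the genes numbered 659 and 94. NTF3, TMEM158 and FZD7 stood farthest above, by 22, 18 and 16 contacts over the highest pluripotent condition. MYO10, a myosin, had from 1 to 2 contacts over the pluripotent conditions, 12 in DE and 7 in NE, and GAS1, a hedgehog co-receptor, 0 to 3, 12 in DE and 3 in NE. DNAI1, a dynein subunit, had 0 to 1, 8 in DE and 1 in NE. EBF4 had 3 to 4 contacts over the pluripotent conditions and none in DE or NE. These genes were named after their values were seen, by their distance from the pluripotent conditions.

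Of the 17 lists, HOXA had the largest difference toward fewer contacts, with sums of 137 contacts over 12 genes, EVX1 included, at day 14 and 60 in DE. Among the distinct contacts, 21 at day 14 and 4 in DE had genes of the list at both ends, and these count for more than 1 gene. Fewer contacts were seen for 10 of the 12 and more for 2. With equal numbers the DE mean was 3.75 per gene against 11.4 at day 14. HOXA3 had 19 contacts at day 14 and 8 in DE, HOXA9 17 and 5 and HOXA10 19 and 5. The HOXA9 count in DE lay under the lowest pluripotent condition, which was 6, whereas naive cells had 3 contacts at HOXA10. At day 10 each of the 3 genes had 6 contacts, and H9 had 25, 12 and 16. The list as a whole held 35 contacts in naive cells, 49 at day 10, from 52 to 107 over the other days before day 14, 148 in H9 and 45 in NE, so DE lay within the range of the pluripotent conditions. HOXA9 had 12 partners from its own baits at day 14, spread over chr7:26680305-27251469. In DE its 3 partners from its own baits all lay at chr7:26849794-26858403, 307 to 313 kb from the gene. The strongest HOXA9 contact of day 14, at 47.0 kb, scored 9.69 there, 1.16 in DE, 8.08 in H9 and 0.331 in NE. At a score of 10 or more the list held 4 contacts in each state, with 2 genes more and 2 fewer. HOXA3 then had 1 contact at day 14 and 2 in DE.

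EVX1, a homeobox gene beside HOXA13, had 9 contacts at day 14, none in DE, 1 in NE, 8 in H9 and from 1 to 9 over the pluripotent conditions. In all 9 it was the other end, at 37.4 to 142 kb from the bait, and 5 of these baits lay at HOXA3, HOXA9 or HOXA10. The strongest, from a HOXA10 bait at 60.7 kb, scored 8.59 at day 14, 0.548 in DE, 0.513 in NE and 6.57 in H9.

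HOXD genes with EVX2 held 54 contacts at day 14 and 43 in DE, with 7 of 10 fewer and 2 more. EVX2 had 13 and 4, and HOXD1, at the opposite edge of the cluster, 4 and 11. All 11 partners of HOXD1 in DE lay at higher coordinates, outside the cluster, at 257 to 461 kb, and 3 of 4 lay at lower coordinates at day 14. HOXB genes held 68 and 67 contacts, or 41 in DE with equal numbers, where 2 of 10 had more and 8 fewer. At a score of 5, HOXB13 had 12 and 6, HOXB4 5 and 1 and HOXB1 2 and 6. HOXC genes went the other way from HOXA, with 88 contacts at day 14 and 121 in DE, 6 of 9 more and 3 fewer, although with equal numbers 4 were more and 5 fewer and at a score of 10 or more the list held 4 and 1. These sums count a contact of the fragment with ends of HOXC4, HOXC5, HOXC6 and HOXC8 once for each gene. HOXC11 had 10 and 24, with 4 to 22 over the pluripotent conditions and 21 in H9, HOXC4 11 and 22 and HOXC13 15 and 8, and 13 of 24 HOXC11 partners in DE lay at lower coordinates against 3 of 10 at day 14.

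Of the 7 contact classes plotted, contacts with a regulator gene at both ends had the lowest ratio of DE to day 14 calls. The class was counted after it had been seen in the data, over the 171 genes of the endoderm, foregut, HOX, neuroectoderm, neural crest and mesoderm lists, of which 158 were linked. A regulator gene lay at the bait of 385 contacts at day 14 and 483 in DE (1.25 times), or 348 with equal numbers, against 1.44 times for all contacts. Contacts with any gene at the bait were not counted as a class. A regulator gene lay at the other end of 220 contacts at day 14 and 167 in DE, 0.759 times as many, and 128 with equal numbers. For any gene end at the other end the ratio was 1.25. Regulator genes lay at both ends of 46 contacts at day 14 and 13 in DE, 0.283 times as many, or 8 with equal numbers. In 3 of the 46 and 2 of the 13 the same gene lay at both ends. The bait-to-bait part of this class, not plotted, held 4 contacts at day 14 and 0 in DE. Contacts with no gene end at the other end numbered 17807 and 26186, 1.47 times. Of the 46 contacts of day 14, 5 were called in DE. H9 called 55 contacts of this class and NE 7, and the earlier conditions had 4 (naive), 8 (day 1), 24 (day 3), 23 (day 5), 20 (day 7) and 12 (day 10). DE thus lay above the naive cells, day 1, day 10 and NE and under day 3, day 5, day 7, day 14 and H9, and day 14 and H9 were the highest of all conditions.

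**Figure D3:**
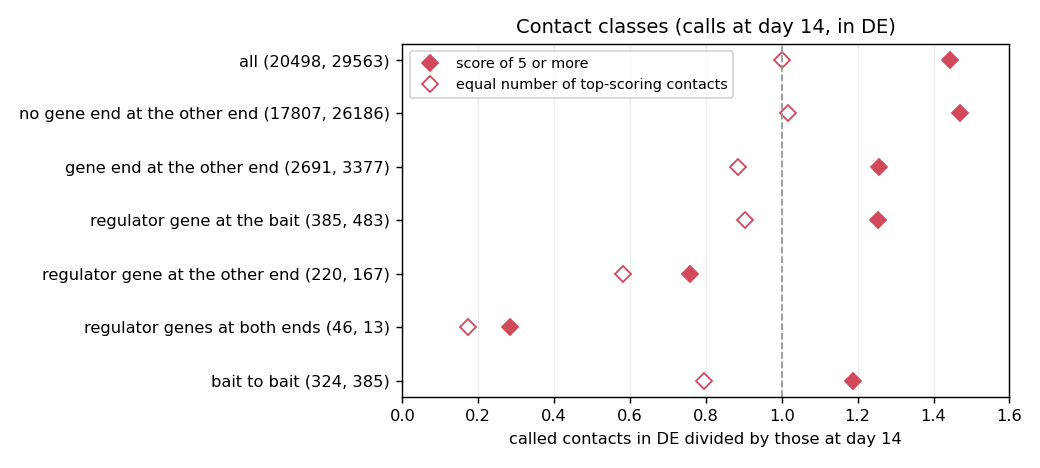
Called contacts in DE divided by those at day 14 (x axis) for 7 contact classes (y axis, calls at day 14 and in DE in brackets), at a score of 5 or more (filled) and with an equal number of top-scoring contacts (open), with a dashed line at 1. The ratio is 1.44 for all contacts and 0.283 for contacts with regulator genes at both ends.

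The HOXA and EVX1 locus gave 21 of these contacts at day 14 and 4 in DE, HOXB 6 and 1, the HOXD and EVX2 locus 5 and 0, and HOXC 4 and 3. HOX and EVX loci together gave 36 and 8, and other loci 10 and 5. A HOXA5 bait and a fragment with ends of HOXA2 and HOXA3, 35.9 kb apart, scored 10.6 at day 14 and 5.32 in DE and were kept. From another HOXA5 bait the same fragment scored 8.46 and 3.63. A HOXA10 bait and that fragment, 75.2 kb apart, scored 7.15 and 8.01 and were kept as well. HOXB13 to HOXB9, 99.9 kb apart, scored 9.27 at day 14 and 4.45 in DE, just under the threshold. EVX2 to HOXD12, 19.2 kb apart, scored 6.05 and 2.15. Outside HOX loci, NEUROG1 to PITX1 at 499 kb scored 9.14 and 1.02, VAX1 to EMX2 at 411 kb 5.66 and 0, and PDX1 to CDX2 at 46.6 kb 5.80 and 0.806. Higher scores in DE were seen from an IRX3 bait to IRX5 at 651 kb (3.11 at day 14 and 6.48 in DE). From an IRX5 bait to IRX3, at 644 kb, the scores were 5.22 and 5.34, so that contact was kept. A contact within MEIS2 at 212 kb scored 2.65 and 8.82.

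**Figure D4:**
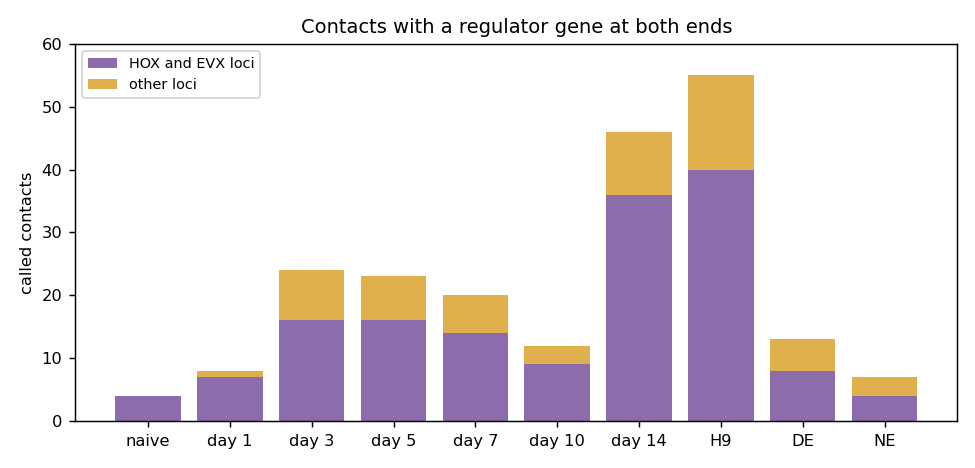
Number of called contacts with a regulator gene at both ends (y axis) in each condition (x axis), split into HOX and EVX loci and other loci, with 1 pooled value per condition. Day 14 (46) and H9 (55) stand above DE (13) and NE (7), and naive cells are at 4.

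Foregut, pancreas and hindgut genes held 88 contacts over 20 genes at day 14 and 68 in DE, although 11 members had more and 8 fewer. With equal numbers 3 had more and 9 fewer, with a mean of 2.25 in DE against 4.40 at day 14. NKX2-1, the lung, thyroid and ventral forebrain regulator, had 12 contacts at day 14, 1 each in DE and NE, 7 in H9 and from 0 to 12 over the pluripotent conditions. It was the other end of all of them. The day 14 contacts came from baits at chr14:36605170-37589094, of which 11 lay within 147 kb and 1, at FOXA1, at 1071 kb. The strongest scored 12.9 at day 14, 0 in DE, 0.937 in H9 and 0.919 in NE. The contact called in DE, at 131 kb, scored 5.52 there and 2.94 at day 14. PAX9, its neighbour and a pharyngeal pouch regulator, had 7 and 2, and a fragment at PAX9 with a bait at 149 kb scored 10.7 and 1.81. CDX2, a hindgut and trophectoderm factor, had 10 and 5. PDX1, a pancreas regulator beside CDX2, had 7 and 2 and was named after its values were seen. ISL1 had 23 and 20 and shared its strongest partner, at 414 kb, with scores of 14.8 and 15.0. The list without NKX2-1 held 76 and 67 contacts.

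**Figure D5:**
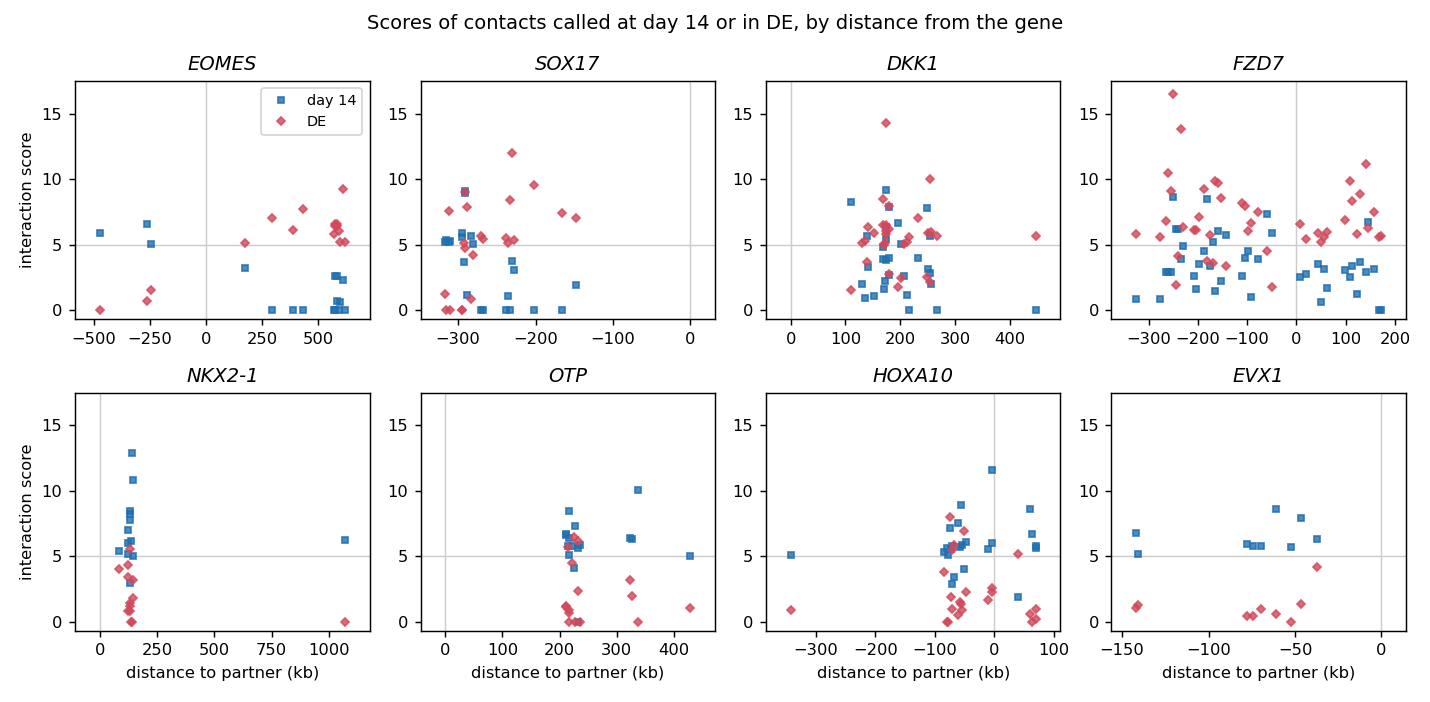
Interaction score (y axis) of each contact called at day 14 or in DE against the signed distance from the gene to its partner (x axis, kb, positive toward higher coordinates) for 8 genes, with day 14 squares and DE diamonds for the same contacts and a line at the threshold of 5. The 3 day 14 partners of EOMES lie on the negative side and the 13 DE partners on the positive side, and the day 14 squares of NKX2-1 reach 12.9 where the DE diamonds reach 5.52.

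Neuroectoderm regulators, as genes of another lineage, had more contacts in DE for 28 of 46 and fewer for 7, with 153 contacts at day 14 and 190 in DE. With equal numbers 18 had more and 14 fewer, and counting other ends alone 9 had more and 12 fewer. By other ends, 18.6% of all linked genes had more contacts in DE and 13.6% fewer. OTP, a hypothalamic homeobox gene, had 14 contacts at day 14 and 3 in DE (3 in NE), within the 1 to 30 of the pluripotent conditions. Its 12 partners from its own baits at day 14 lay at chr5:77843287-78060990. SIX6, an eye field gene, had 20 and 13. It was the other end in 10 and 1 of these, while it had 10 and 12 contacts from its own baits, and none was kept. Over all contacts within chromosomes, 10.0% of the day 14 calls were kept. From its own baits the DE partners of SIX6 lay at chr14:60151424-60361069. OTX1, named after its values were seen, had 0 and 6.

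Neural crest regulators had more contacts in DE for 4 of 13 and fewer for 4. SNAI2, a factor of epithelial to mesenchymal transition that is also used in the crest, had none at day 14, 11 in DE, 11 in NE and from 3 to 7 over the other pluripotent conditions, 6 of them in H9, so that day 14 was the only condition with none. Without SNAI2 the list held 18 contacts at day 14 and 16 in DE. SNAI2 had 7 contacts in DE with equal numbers, all 11 partners lay at lower coordinates, and the highest score was 8.22, at 529 kb, against 0 at day 14, in H9 and in NE. TWIST1 had 5 and 1, and MSX2 2 and 6. Mesoderm regulators had more for 17 of 30 and fewer for 8, or 13 and 10 with equal numbers, where the mean was 2.20 in DE against 2.23 at day 14. At a score of 5 the list had FOXC2, a mesenchymal forkhead factor, at 0 and 9 and the muscle factor MYOD1 at 10 and 18.

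The pluripotency list held 18 contacts at day 14 and 56 in DE over 15 genes, and without FZD7 8 and 19. POU5F1 and NANOG had no contact in either state, SOX2 had 0 and 1, and DNMT3B 0 and 2. Trophectoderm and amnion genes held 48 and 44, with HAND1 at 4 and 7. Their DE sum was 26 with equal numbers, where 2 had more and 6 fewer and HAND1 had 3 in DE. Polycomb complex genes held 28 in each state over 20 linked genes, with 6 more and 5 fewer. Their DE sum was 19 with equal numbers, where 3 had more and 5 fewer. At a score of 5, PHC2 had 10 and 6, PCGF2 1 and 4 and BMI1 7 and 6. Housekeeping genes, a reference list, held 0 and 3 over 8 linked genes.

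FAAH, a fatty acid amide hydrolase gene, was the remaining large loss over all genes, with 10 contacts at day 14, none in DE, 7 in NE and 3 in H9. In 8 of them it was the other end. Its strongest contact, at 117 kb, scored 10.4 at day 14 and 4.79 in DE, near the threshold, with 3.24 in H9 and 5.27 in NE. At a threshold of 3 FAAH had 12 contacts at day 14 and 9 in DE.

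By windows of 500 kb, 56.4% of 4034 windows with a listed bait had more contacts in DE and 23.9% had fewer, or 1496 and 1619 windows with equal numbers. The window with NTF3 (chromosome 12, 5 to 5.5 Mb) held 47 contacts at day 14 and 114 in DE from 19 baits, 92 with equal numbers, and 113 in NE and 38 in H9. The window with GATA4 and NEIL2 (chromosome 8, 11.5 to 12 Mb) held 47 and 107 from 45 baits, 82 with equal numbers, and 107 in NE and 83 in H9. The window with FZD7 (chromosome 2, 202 to 202.5 Mb) held 22 and 76 from 7 baits, 67 with equal numbers, and 52 in NE and 30 in H9. FOXD2 and FOXE3 (chromosome 1, 47 to 47.5 Mb) lay in a window with 58 and 110 contacts, 80 with equal numbers, and 137 in NE and 92 in H9. PAX2 (chromosome 10, 100.5 to 101 Mb) lay in a window with 46 and 96, 77 with equal numbers, and 88 in NE and 74 in H9. GATA4 itself held 3 and 11 of the contacts of its window.

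The largest loss by window was that with OTP (chromosome 5, 77.5 to 78 Mb), with 116 contacts at day 14, 69 in DE, 96 in NE and 116 in H9. The HOXA window (chromosome 7, 27 to 27.5 Mb) held 139 at day 14, 105 in DE, 110 in NE and 131 in H9, while naive cells had 74. Of the 105 HOXA contacts in DE, 95 were gained and 10 kept, so that the window lost 129 contacts and gained others. Few contacts were kept anywhere, with 6.96% of all DE calls within chromosomes and 10.0% of all day 14 calls. A window of chromosome 12 from 57.5 to 58 Mb with CYP27B1, the enzyme that activates vitamin D, held 62 and 30, and 61 in NE. A window of chromosome 17 from 38.5 to 39 Mb with EPOP, a Polycomb partner, held 45 and 29, and a window of chromosome 6 from 10 to 10.5 Mb with TFAP2A 25 and 9, none kept.

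By distance, contacts of 500 kb to 1 Mb numbered 1450 at day 14 and 2696 in DE, 1.86 times, and 1801 with equal numbers. The ratio was 1.45 under 100 kb, 1.35 from 100 to 250 kb and 1.45 from 250 to 500 kb. Contacts of 1 to 10 Mb numbered 25 and 109, and those of 10 Mb or more 46 and 142. The median distance was 208 kb at day 14 and 218 kb in DE. Calls came from 11222 baits at day 14 and 13953 in DE, with 1.83 and 2.12 calls per bait.

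The strongest contacts that were high in 1 state and under 1 in the other are given for distances of up to 1 Mb, since beyond that the same list was filled by pairs of fragments near the centromere of chromosome 16 and by gene copies such as KRTAP5-2 and KRTAP5-10. In DE the first joined a bait at chr20:58209443-58209795 to a fragment with an end of ZBP1, an innate immune sensor, at 605 kb, with scores of 21.8 in DE, 0.596 at day 14, 14.4 in naive cells and 7.25 in NE. A contact on chromosome 15 at 429 kb scored 21.1 in DE and 0 at day 14, and 1 on chromosome 5 at 558 kb scored 17.7 and 0.923, with 12.9 at day 3. The contact of ADAMTS16 given above was next. A bait on chromosome 7 at 27575746-27576179, beyond EVX1, joined a fragment at 367 kb with 15.6 in DE, 0 at day 14, 9.39 in naive cells and 10.8 in NE. At day 14 the first was a contact on chromosome 8 at 217 kb, with scores of 17.7 at day 14, 0.647 in DE and 3.75 in H9. The bait of MARCKS, a kinase substrate of the membrane, and a fragment at 363 kb scored 14.1 and 0, with 1.07 in H9, and a pair on chromosome 18 at 366 kb 14.0 and 0, with 3.23 in H9. Of the 5 contacts high in DE, 4 scored over 5 in naive cells or at day 1, and of the 5 high at day 14, 4 scored under 5 in H9. Over all DE calls, 5.47% were also called in naive cells and 5.48% at day 1. The share of all day 14 calls that were under 5 in H9 was not counted, so the H9 count has no background.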

How the data were processed

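Poised Enhancer Capture Hi-C, with DpnII digestion per the labels, was done on 20 libraries of 10 conditions. The authors deposited 1 interaction score per condition and pair of fragments, per the labels a CHiCAGO score that pools 2 libraries, and these scores were used as deposited without normalisation between conditions. All 10 score columns were matched to a condition and 0 were not. The build was GRCh38 per the submitters' processing notes. The aligner, the caller's version and its filters are not given in the sources used here, and the depth is unknown. A deposited signed distance in bp was also used.

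Pairs with a score of 5 or more were taken as called contacts. Genes were 19961 protein-coding RefSeq genes (GRCh38.p14), after 95 readthrough genes were left out. Shares have Wilson 95% intervals, and no test was run since each condition is 1 value. Members and the 17 gene lists were chosen with earlier results of these data known. Genes named were the 3 members per list with the largest absolute difference, the 8 largest gains and the 8 largest losses over all linked genes, and a fixed set of 20 regulators, 64 linked genes in all. Also named were 8 windows of 500 kb for each direction, ranked by the difference, and 5 contacts for each. Genes outside this rule are marked, and some named genes are not reported here. Counting was tested on simulated data. Promoter sequences and start sites came from a RefSeq table that does not list every gene. Alternatives were score thresholds of 3 and 10, an equal number of top-scoring contacts, other gene links, windows of 1 Mb and H9 as the reference. The software was pandas 2.3.3, matplotlib 3.10.9, scipy 1.17.1 and numpy 2.4.6 on Python 3.11.15.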

Additional observations from a re-analysis of the deposited data

How the results depend on the processing

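Each condition is 1 score column of 2 pooled libraries with unknown depth, so the spread between libraries could not be measured. No paired analysis was possible because both replicate numbers of a condition share 1 deposited column, and for the same reason no library could be left out. Gained contacts, lost contacts, genes with more and genes with fewer contacts numbered 27506, 18441, 3350 and 2163, and 11 of 17 lists had a higher mean in DE, 35 named genes more contacts and 24 fewer.

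At a threshold of 10 there were 741 contacts gained, 352 lost and 68 kept, 206 genes with more and 97 with fewer, 7 lists higher, 11 named genes with more and 9 with fewer, and 376 windows with more and 156 with fewer. Contacts with regulator genes at both ends were then 1 at day 14 and 0 in DE, so this class has too few contacts to compare there. At a threshold of 3 they were 75 and 33, and 11890 contacts were kept. With the 18272 top-scoring contacts of every condition, added after seeing the data, 659 genes had more contacts in DE than in each pluripotent condition and 94 had fewer, against 1305 and 58. With equal numbers 7 lists were higher, 8 DE contacts had regulator genes at both ends, and 1496 windows had more and 1619 fewer contacts. Windows of 1 Mb gave 576 with fewer. Other ends within 10 kb taken as the same gave 5443 kept. With no widening of the interval 2174 genes and 20 named genes had more contacts, and the class with regulators at both ends held 13 at day 14 and 3 in DE, and with 5 kb it held 173 and 54. By other ends alone, 2101 genes and 16 named genes had more. With RefSeq start sites, added after seeing the data and run on fewer genes, 2174 genes had more and 1322 fewer, 16 named genes had more, and the class held 26 and 4. The class held fewer contacts in DE than at day 14 under each of these settings.

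Directions that turned are given as the difference in mean contacts per gene for lists and in contacts for genes. At a threshold of 10 HOXB was at 0.10, HOXC at -0.333, neuroectoderm regulators at -0.087, HOXA3 at 1 and TWIST1 at 1. At 3 HOXB was at 3.0, HOXB4 at 2 and TWIST1 at 1. With equal numbers neuroectoderm regulators were at -0.130, neural crest at -0.077, mesoderm at -0.033 and HAND1 at -1. HOXB was at 0.50 with a margin of score and at 0.10 without bait-to-bait contacts, where BMI1 was at 1. With no widening GATA4 was at -1. With 5 kb HOXB was at 3.0, trophectoderm and amnion genes at 2.67, BMI1 at 2, HOXB13 at 1, HOXB4 at 10, ISL1 at 7, PCGF2 at -1 and TWIST1 at 5. By other ends alone neuroectoderm regulators were at -0.694. With start sites endoderm regulators were at -0.182, NODAL and activin genes at -0.429, HOXB at 1.0, neuroectoderm regulators at -0.414, neural crest at -0.571, BMI1 at 1, HOXD1 at -1 and PRDM1 at -1. With H9 in place of day 14 neuroectoderm regulators were at -0.261, neural crest at -0.385, mesoderm at -0.167, BMI1 at 3, HHEX at 2, HOXB1 at -1 and PHC2 at 1. The cause was not tested, beyond the fewer genes that have a start site entry. Over 748 values of named genes under the alternatives 20 turned, and among the 33 named genes with a difference of 5 contacts or more 4 of 384 values turned.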
